A study of Mus musculus with 6 samples.

Results

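Kupffer cells are the macrophages that live inside the sinusoids of the liver, and 10 genes that mark them were followed in the livers of mice without Nogo and of their wild-type littermates. The genes were Clec4f, Mrc1, Marco, Cd163, Cd5l, Vsig4, Timd4, Folr2, Csf1r and Adgre1, taken by symbol from a table of 54232 genes. All 10 were present and all 10 passed the filter on low counts. The knockout livers (Nogo-/-, called KO here) and the wild-type livers (WT) of littermates are represented by 3 libraries each, all of mice on normal chow and aged 8 weeks. The study does not state that each library is from a different mouse, so each is called a liver here. Nogo is the protein of Rtn4, a reticulon that shapes the endoplasmic reticulum. How the allele was made, and whether it is absent from every cell type, is not given in the sources used here. The libraries are named by genotype and the number in their label: KO 1, KO 2 and KO 4, and WT 2, WT 4 and WT 11. RNA came from liver tissue and not from sorted cells, as far as the labels say, so fewer Kupffer cells and less RNA per Kupffer cell cannot be told apart.

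Kupffer cells are seeded before birth and renew themselves in the liver. They take bacteria, dying cells, aged red cells and modified lipoproteins out of the portal blood, and they depend on signalling through the receptor of the growth factor CSF1. Clec4f, Vsig4, Timd4, Cd5l and Marco are known mainly from resident cells of the liver and a few other tissues, while Csf1r, Adgre1 and Mrc1 are shared with other macrophages, and Mrc1 also with sinusoidal endothelial cells.

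The libraries held 17654412 to 18118811 counts in KO and 17568223 to 20902369 counts in WT. Levels are given as CPM, the count of a gene scaled by library size and TMM factor, and a floor of 3 counts equals 0.161 to 0.199 CPM in KO and 0.139 to 0.16 CPM in WT. Rtn4 averaged 5.85 ± 2.05 CPM in KO and 49.8 ± 8.20 CPM in WT (SD, n = 3 each), so each library had the Rtn4 level of its label. Mitochondrially encoded genes took 28.6%, 19.7% and 11.8% of the counts in KO 1, KO 2 and KO 4, and 6.17% to 6.90% in WT. With these genes taken out of the table, 2283 genes were called, and of the markers 1 fell and 0 rose, as before. The fits with the share as a covariate and with KO 4 alone are given with Folr2. Since the share was higher in every KO library than in every WT library, the covariate fit cannot separate it from genotype. The table as a whole was sensitive to which libraries were used. Of 13304 tested genes 2268 were called (edgeR's quasi-likelihood test, Benjamini-Hochberg adjusted p under 0.05), and between 630 and 4046 when 1 library was left out. Without KO 4 13.7% of all tested genes rose and 15.7% fell. In the other fits that left out 1 library 2.18% to 5.96% rose and 2.39% to 6.36% fell. Counts for a list of genes in these fits move with those shares and are no result about the list alone. With all 6 libraries 4526 of the 13304 tested genes had an unadjusted p under 0.05 in either direction (edgeR). Counts of genes at that level, given below, are to be read against this background.

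Folr2 fell in KO livers and was the only one of the 10 markers to pass the test. None of the 10 rose by the same test, also at an unadjusted p under 0.05, and none with DESeq2 or limma-voom, which called 5.32% and 8.63% of their tested genes as risen and 6.02% and 9.46% as fallen. Each of those tools also had 1 marker fall. Thus 0 rose and 1 fell, where 8.76% of all tested genes rose and 8.29% fell, and 17.0% were called in either direction. A share of 10% called is near that background and is no result about the markers as a group. Their median log2 fold change (KO over WT) was −0.17, against 0.01 over all tested genes. The count moved with a single library. Without KO 2, 4 markers fell and 0 rose, where 3.05% of all genes fell and 4.15% rose: Folr2, Adgre1, Cd5l and Vsig4, with adjusted p-values of 0.0306, 0.0314, 0.0416 and 0.0494 (edgeR). The median of the 10 was then −0.66. Without KO 1 and without KO 4 only Folr2 fell, where 2.99% and 15.7% of all genes fell, and the median was −0.03 and 0.03.

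**Figure D1:**
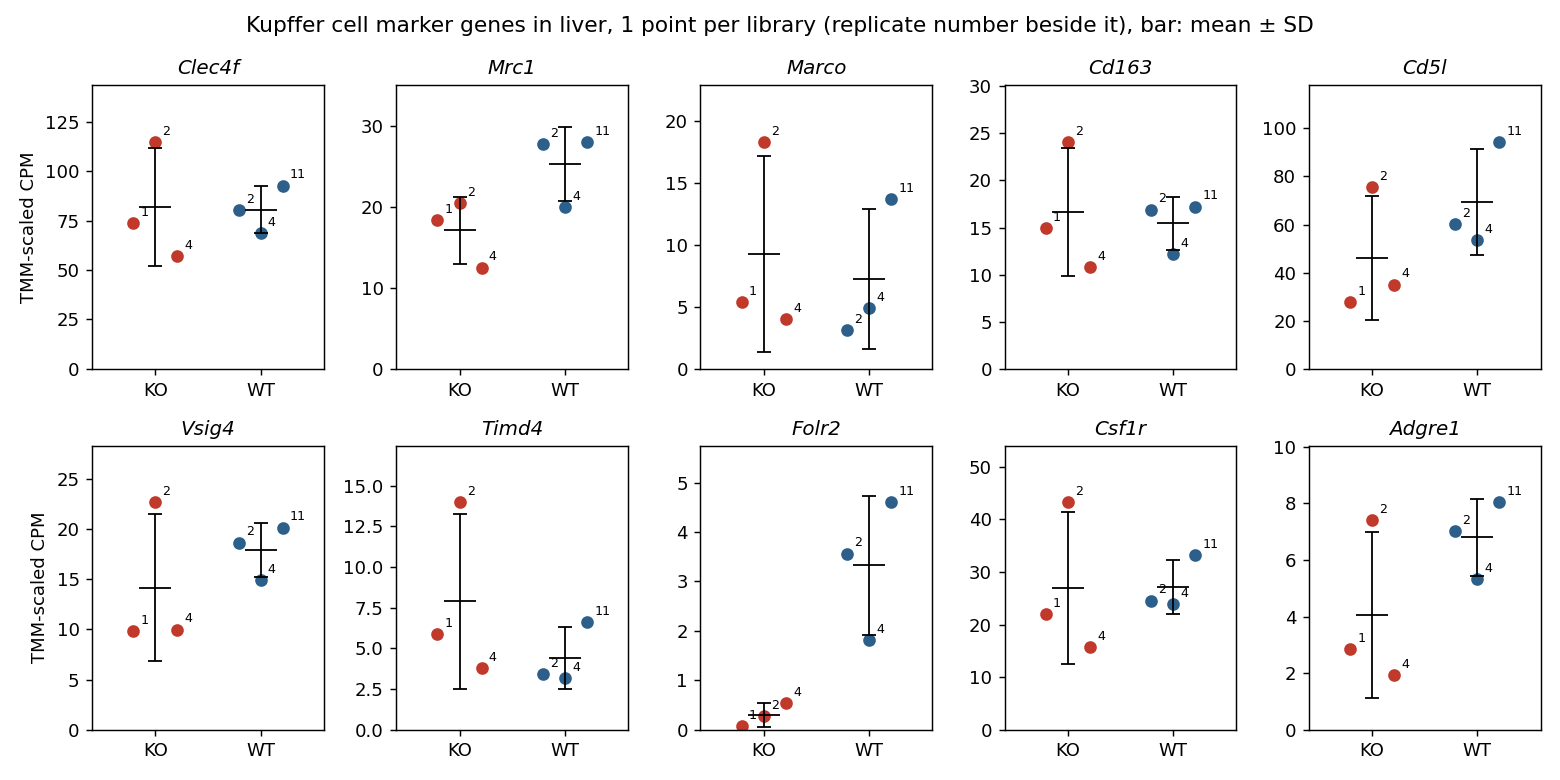
TMM-scaled CPM (vertical axes, starting at 0) of the 10 marker genes in KO and WT livers, with 1 point per liver, its replicate number beside it, and the mean ± SD as a bar (n = 3 each). For Folr2 the 3 KO points, at 0.0662 to 0.541 CPM, lie below the 3 WT points, at 1.81 to 4.60 CPM, and for the other 9 genes the groups overlap.

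Folr2 encodes folate receptor beta, a membrane-anchored protein that takes up folate and is found on resident macrophages. It had 1, 5 and 9 counts in KO 1, KO 2 and KO 4, and 75, 34 and 99 counts in WT 2, WT 4 and WT 11. Folr2 thus passed the filter on low counts through its WT libraries. With no such filter its log2 fold change was −3.51 and it was called too. That fit gave smaller standard errors than the main one for each marker (Marco 0.26 against 0.61). Its p-values are therefore not used as support. The levels were 0.0662, 0.269 and 0.541 CPM in KO, against 3.56, 1.81 and 4.60 CPM in WT. Every KO liver lay below every WT liver, as was the case in one direction or the other for 38.9% of all tested genes. The means were 0.292 ± 0.239 CPM in KO and 3.32 ± 1.41 CPM in WT (SD, n = 3 each). The log2 fold change was −3.46 with a standard error (SE) of 0.58 and a 95% interval of −4.75 to −2.18 (edgeR, adjusted p = 0.00701). With so few reads the counting error is wide: the single count in KO 1 allows 0.0253 to 5.57 counts, or 0.00168 to 0.369 CPM (exact 95% Poisson interval). Pooled over livers, 15 counts in KO against 208 in WT gave a ratio of 0.0879 with an exact 95% interval of 0.0483 to 0.148, which covers counting error only.

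The call for Folr2 held without the mitochondrially encoded genes (−3.46, edgeR adjusted p = 0.00657) and in each of the 6 fits that left out 1 library, with log2 fold changes of −4.21 to −3.04 and adjusted p-values of 0.00207 to 0.0306 (edgeR). It was lost with the mitochondrial share as a covariate (−1.84, adjusted p = 0.633), a fit in which edgeR called 0 of the 13304 genes and 1146 had an unadjusted p under 0.05. It was also lost with KO 4, the KO library with the smallest mitochondrial share, alone against the 3 WT (−2.61, adjusted p = 0.141), where 25 genes were called.

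The gene lies on chromosome 7 from 101839988 to 101857194 on the minus strand (mm10, ENSMUSG00000032725) and has 5 annotated transcripts. Of its 50-base transcript words, 52.6% also occur, on the other strand, in Gm10602, an antisense gene that overlaps it. The strandedness of the counting is not given in the sources used here, so reads of the pair may have been dropped or assigned to either gene. Gm10602 also overlaps the neighbouring gene Inppl1 in position, so its counts need not be reads of Folr2. Their origin was not tested. Gm10602 had 3, 14 and 20 counts in KO 1, KO 2 and KO 4, against 9, 6 and 22 in WT 2, WT 4 and WT 11. It did not pass the test (log2 fold change 0.28 ± 0.64 SE, edgeR adjusted p = 0.788). With the counts of both genes summed, a choice made after the data were seen, the levels were 0.265, 1.02 and 1.74 CPM in KO and 3.99, 2.13 and 5.62 CPM in WT. That sum still fell, by less (−1.94 ± 0.55 SE, edgeR adjusted p = 0.0372). The size of the Folr2 change may therefore depend on how reads of the overlap were counted, while the 3 KO livers remained below the 3 WT livers either way. The sum sets no bound on that size, since it may hold reads of other genes.

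Of the genes within 100 kb of Folr2 7 were tested and 0 were called by edgeR, with 1 at an unadjusted p under 0.05, Numa1. Clpb, a mitochondrial disaggregase, averaged 44.0 CPM in KO and 40.3 CPM in WT (0.12 ± 0.19 SE). Inppl1, a phosphoinositide phosphatase next to Folr2, averaged 32.0 CPM in KO and 28.3 CPM in WT (0.18 ± 0.16). Numa1, a protein of the mitotic spindle, averaged 30.0 CPM in KO and 41.5 CPM in WT and had the smallest adjusted p of the neighbours, 0.0803 by edgeR (−0.47 ± 0.17). Folr1, the other folate receptor of the locus, had 0 counts in all 3 KO libraries and in 2 of the 3 WT libraries, with 5 counts in WT 11, and was not tested.

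Short motifs of factors that act in macrophages were looked for in the 250 bases before each annotated start. The first was GAGGAA, a purine-rich core bound by the macrophage factor PU.1. The second was TGCTGA, a part of the element bound by MAF proteins. The third was AGGTCA, the half-site of nuclear receptors. Windows were available for 8 of the 10 markers, not for Adgre1 and Csf1r. Both strands were searched, and no 2 matches overlapped. The PU.1 core was in 23.3% of the 32851 windows of all genes and before 4 of the 8 markers. The MAF element was in 16.1% of all windows and before 4 markers, and the half-site in 14.0% and before 2 markers. A match is a description of letters, not of binding. The sequences shown are both starts of Folr2, the marker that fell, and those of Vsig4 and Cd5l, which passed without KO 2. They are from RefSeq (GRCm38.p6), run 5′ to 3′ along the gene and carry the motif matches of either strand in capitals.
Folr2, first start (chr7:101845332-101845581, minus strand): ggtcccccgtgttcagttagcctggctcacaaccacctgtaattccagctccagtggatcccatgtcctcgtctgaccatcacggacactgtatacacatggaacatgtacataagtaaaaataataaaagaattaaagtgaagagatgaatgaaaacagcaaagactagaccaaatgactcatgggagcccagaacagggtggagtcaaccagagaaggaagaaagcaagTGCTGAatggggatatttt
Folr2, second start (chr7:101857191-101857440, minus strand): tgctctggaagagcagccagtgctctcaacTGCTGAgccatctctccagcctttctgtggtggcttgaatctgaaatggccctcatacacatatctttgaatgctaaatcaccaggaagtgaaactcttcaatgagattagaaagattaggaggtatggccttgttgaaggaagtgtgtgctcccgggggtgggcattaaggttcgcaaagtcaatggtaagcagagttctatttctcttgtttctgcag
Vsig4 (chrX:96293439-96293688, minus strand): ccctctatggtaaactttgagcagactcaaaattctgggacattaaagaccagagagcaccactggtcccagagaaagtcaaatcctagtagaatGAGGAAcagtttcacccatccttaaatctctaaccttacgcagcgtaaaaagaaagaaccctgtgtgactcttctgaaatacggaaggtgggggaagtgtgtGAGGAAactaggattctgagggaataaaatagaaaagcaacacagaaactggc
Cd5l (chr3:87357631-87357880, plus strand): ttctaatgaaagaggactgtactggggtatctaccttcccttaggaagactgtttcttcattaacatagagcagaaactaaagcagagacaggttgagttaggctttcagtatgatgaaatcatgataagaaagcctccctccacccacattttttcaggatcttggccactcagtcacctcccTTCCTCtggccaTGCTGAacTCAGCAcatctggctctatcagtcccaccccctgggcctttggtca
Each Folr2 window held a single TGCTGA, which began 19 bases before the first start and 220 bases before the second, and no GAGGAA. The Vsig4 window held GAGGAA at 155 and 53 bases before the start and no TGCTGA. The Cd5l window held both, with GAGGAA on the opposite strand 66 bases before the start and TGCTGA at 54 bases on the gene strand and 46 bases on the opposite one. Mrc1 had the most GAGGAA matches of the markers, 3, all on the opposite strand, and Cd163 had no match to any of the 3 motifs. The motifs did not separate the marker that fell from those that did not pass, since TGCTGA was also found before Clec4f, Timd4 and Cd5l.

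The lectin receptors came next in order of role. Clec4f encodes a C-type lectin that binds galactose-type sugars and in mouse is nearly restricted to Kupffer cells. It had 73.8, 115 and 57.2 CPM in KO 1, KO 2 and KO 4, against 80.3, 68.8 and 92.8 CPM in WT 2, WT 4 and WT 11. The highest and the lowest of the 6 livers were both KO. On the log2 scale the fold change was 0.02 ± 0.25 SE (95% interval −0.53 to 0.58, edgeR adjusted p = 0.957), and its sign turned without KO 2 (−0.30) and when libraries were scaled by their totals (−0.12, with the median over all genes then at −0.16). As a ratio the interval runs from 0.692 to 1.49 times the WT level, so changes of that size remain possible.

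Mrc1 encodes the mannose receptor, which clears glycoproteins. It had 18.4, 20.5 and 12.5 CPM in KO 1, KO 2 and KO 4, against 27.7, 20.0 and 28.0 CPM in WT 2, WT 4 and WT 11. Only KO 2 and WT 4 broke the separation of the groups, and by a small margin. The difference came to −0.56 ± 0.23 SE on the log2 scale (95% interval −1.06 to −0.06), with an unadjusted p of 0.0317 and an adjusted p of 0.11 (edgeR). Mrc1 is also made by sinusoidal endothelial cells. Of 14 endothelial markers, all tested and none at 0, 5 fell and 0 rose in KO (1 rose at an unadjusted p under 0.05, and 0 with DESeq2 or limma-voom). The number that fell was 2 without KO 2, 2 without WT 2, 3 without WT 11 and 4 to 6 in the other 3 fits that left out 1 library, and 1 rose without KO 4. Their summed level was 236 to 417 CPM in KO and 353 to 465 CPM in WT. The part of endothelial RNA in the Mrc1 value was not tested.

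Marco, Cd163 and Cd5l carry scavenger receptor cysteine-rich domains. Marco encodes a receptor for bacteria and particles, and its level spread widely in both genotypes. It had 5.43, 18.4 and 4.03 CPM in KO 1, KO 2 and KO 4, against 3.13, 4.91 and 13.7 CPM in WT 2, WT 4 and WT 11. A single liver of each genotype stood above the others, and the highest exceeded the lowest 4.55 times in KO and 4.39 times in WT. The fold change was 0.36 ± 0.61 SE on the log2 scale (95% interval −0.98 to 1.70, edgeR adjusted p = 0.712) and was −0.62 without KO 2 and −0.02 without WT 2, so no direction can be given.

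Cd163, the receptor that removes haemoglobin bound to haptoglobin, had 15.0, 24.1 and 10.8 CPM in KO 1, KO 2 and KO 4, against 16.9, 12.2 and 17.2 CPM in WT 2, WT 4 and WT 11. Its order of livers was that of Clec4f. Its fold change was 0.11 ± 0.28 SE on the log2 scale (95% interval −0.51 to 0.73, edgeR adjusted p = 0.818), and −0.04 with library totals and −0.26 without KO 2.

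Cd5l encodes a secreted protein, also called AIM, that circulates with IgM. It had 27.7, 75.7 and 35.0 CPM in KO 1, KO 2 and KO 4, against 60.3, 53.5 and 94.4 CPM in WT 2, WT 4 and WT 11. KO 1 and KO 4 were below every WT liver and KO 2 was within their range. Cd5l had a log2 fold change of −0.59 ± 0.35 SE (95% interval −1.37 to 0.19, edgeR adjusted p = 0.266). It was −1.14 ± 0.28 without KO 2, where it passed. Without KO 1 and without KO 4 it was −0.33 and −0.43 and did not pass.

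Vsig4 and Timd4 are receptors for opsonised and dying targets. Vsig4 encodes the complement receptor CRIg, which catches bacteria coated with C3 fragments. It had 9.87, 22.7 and 9.99 CPM in KO 1, KO 2 and KO 4, against 18.7, 14.9 and 20.2 CPM in WT 2, WT 4 and WT 11. KO 1 and KO 4 were alike and below all WT livers, and KO 2 was above all of them. The log2 fold change was −0.33 ± 0.31 SE (95% interval −1.02 to 0.35, edgeR adjusted p = 0.476). It was −0.85 ± 0.22 without KO 2, where Vsig4 passed. Without KO 1 and without KO 4 it was −0.14 and −0.15, and Vsig4 did not pass.

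Timd4 encodes TIM-4, a receptor for phosphatidylserine on dying cells and a marker of long-lived resident Kupffer cells. It had 5.89, 14.0 and 3.79 CPM in KO 1, KO 2 and KO 4, against 3.42, 3.15 and 6.60 CPM in WT 2, WT 4 and WT 11. No KO liver was below WT 2 and WT 4, and WT 11 was above KO 1 and KO 4. The log2 fold change was 0.85 ± 0.46 SE (95% interval −0.16 to 1.86, edgeR adjusted p = 0.217), the largest positive value among the markers. It was 0.14 without KO 2 and did not pass in any of the 6 fits that left out 1 library.

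Csf1r and Adgre1 are general macrophage genes. Csf1r encodes the receptor of CSF1 and IL-34 on which macrophage survival depends. It had 22.0, 43.2 and 15.6 CPM in KO 1, KO 2 and KO 4, against 24.6, 23.9 and 33.2 CPM in WT 2, WT 4 and WT 11. All WT livers lay between KO 1 and KO 2. The log2 fold change was −0.01 ± 0.32 SE (95% interval −0.73 to 0.70, edgeR adjusted p = 0.984), and −0.53 ± 0.24 without KO 2 (adjusted p = 0.179). Of its transcript words 14.3% are shared with Hmgxb3 on the opposite strand, so part of its reads may be lost or assigned to that gene.

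Adgre1 encodes F4/80, the adhesion receptor used to stain mouse macrophages. It had 2.85, 7.41 and 1.93 CPM in KO 1, KO 2 and KO 4, against 7.03, 5.33 and 8.04 CPM in WT 2, WT 4 and WT 11. As for Cd5l, KO 1 and KO 4 were below all WT livers and KO 2 was not. Adgre1 had a log2 fold change of −0.73 ± 0.43 SE (95% interval −1.67 to 0.21, edgeR adjusted p = 0.25). It was −1.51 ± 0.32 without KO 2, where it passed. Without KO 1 and without KO 4 it was −0.54 and −0.41 and did not pass.

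**Figure D2:**
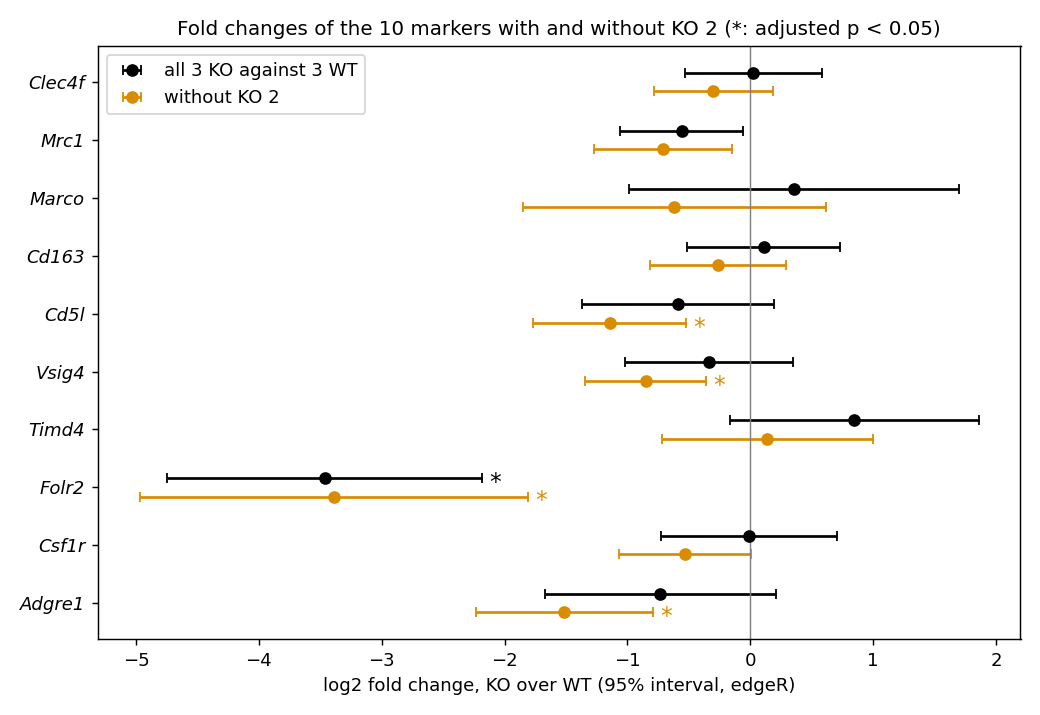
Log2 fold change (horizontal axis, KO over WT) of each marker with its 95% interval from edgeR, from all 6 livers in black and without KO 2 in orange; a star marks an adjusted p under 0.05. With all livers only Folr2 (−3.46) has a star, and without KO 2 Cd5l (−1.14), Vsig4 (−0.85) and Adgre1 (−1.51) have one too. Without KO 1 or without KO 4, fits not drawn here, only Folr2 passed.

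Within each genotype the markers tended to be high or low in the same livers. KO 2 was the highest KO liver for 9 of the 10 markers, Folr2 being the exception, and the highest of all 6 livers for 6 of them. KO 4 was the lowest KO liver for 7 markers. Among the WT livers WT 11 was the highest for all 10 and WT 4 the lowest for 9. Set against the range of the 3 WT livers, KO 1 was below it for 6 markers and within it for 4. KO 2 was below it for 1, within it for 3 and above it for 6, and KO 4 was below it for 8 and within it for 2. The median of log2(CPM + 0.5) minus the WT mean over the 10 markers was −0.36, 0.43 and −0.78 in KO 1, KO 2 and KO 4, against 0.03, −0.31 and 0.27 in WT 2, WT 4 and WT 11. The KO livers thus spanned a wider range than the WT livers, and the summed level of the 10 markers was 181, 341 and 151 CPM in KO, against 246, 209 and 319 CPM in WT.

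**Figure D3:**
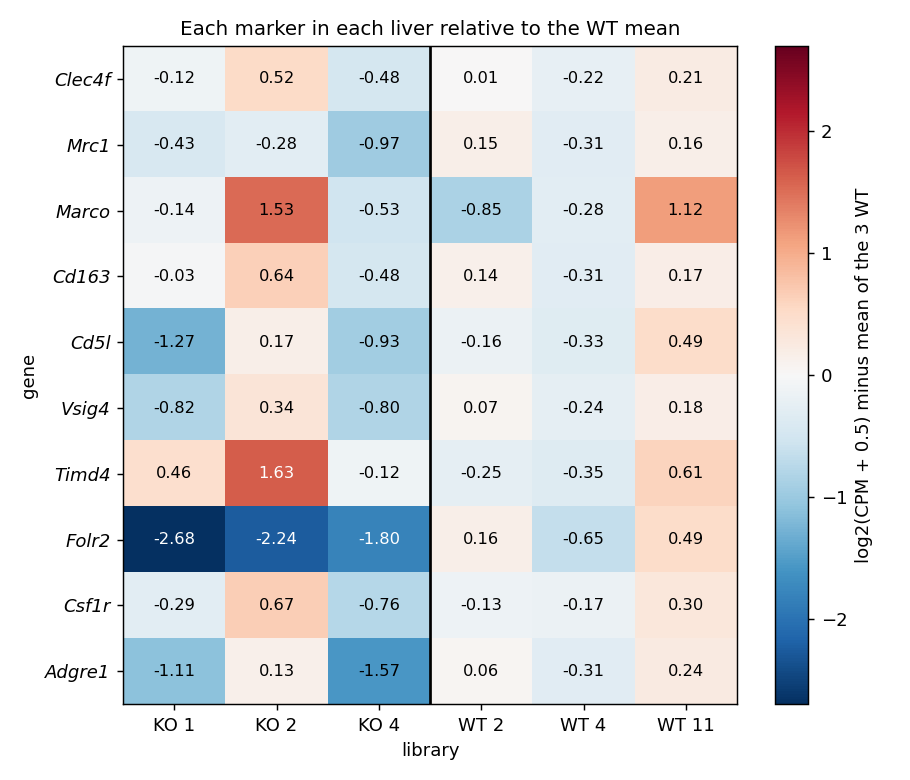
Log2(CPM + 0.5) of each marker (rows) in each liver (columns, KO left of the line, WT right) minus the mean of the 3 WT livers, given as number and colour. The column of KO 2 is mostly positive, up to 1.63 for Timd4, while the row of Folr2 is negative in all 3 KO livers, at −2.68, −2.24 and −1.80.

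Since several markers were high or low in the same livers, each was also set against Clec4f within the same liver. The log2 ratio of Folr2 to Clec4f was −7.04, −7.23 and −5.79 in KO 1, KO 2 and KO 4, against −4.31, −4.90 and −4.19 in WT 2, WT 4 and WT 11, a difference of means of −2.21. These ratios were taken of CPM + 0.5, and Folr2 in KO was near or below 0.5 CPM, so the size follows the pseudocount: the difference was −3.21 with 0.1 and −1.16 with 2, without overlap each time, and no order among the KO livers can be read. Adgre1 differed by −0.82, Cd5l by −0.65, Mrc1 by −0.53 and Vsig4 by −0.40, each without overlap between the groups. Ratios of 5 of the 9 markers did not overlap and all 5 were lower in KO, as with a pseudocount of 0.1. With a pseudocount of 2 there were 6 without overlap, 5 lower and 1 higher in KO, the last being Timd4 (0.56). Over all genes set against Clec4f 15.0% did not overlap in either direction. That share is not a like background for these markers. Vsig4, Adgre1, Cd5l and Mrc1 correlated with Clec4f over the 6 livers (0.84, 0.80, 0.72 and 0.62), so part of their spread cancels in the ratio. All 9 ratios also share 1 denominator. For Cd163 and Csf1r the differences were 0.07 and −0.10, and for Timd4 and Marco 0.68 and 0.31, all with overlap. The exact two-sided permutation test over 3 against 3 livers cannot go below p = 0.1, which those 5 reached (0.18 after adjustment over the 9 markers), so none of these differences passes a threshold of 0.05.

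Per kilobase of exon, where genes can be compared, Clec4f and Cd5l led in both genotypes. In KO they averaged 33.2 and 22.7 CPM per kilobase (RPKM), and in WT 32.6 and 34.1. In WT the pair did not differ beyond their spread, with ranges of 27.8 to 37.5 for Clec4f and 26.3 to 46.4 for Cd5l. Within livers Clec4f exceeded Cd5l in WT 2 (32.5 against 29.6 RPKM) and WT 4 (27.8 against 26.3), but not in WT 11 (37.5 against 46.4). In KO it exceeded Cd5l within each liver, while the ranges of the pair overlapped there too. Clec4f had 29.85, 46.5 and 23.16 RPKM in KO 1, KO 2 and KO 4, against 13.6, 37.16 and 17.2 for Cd5l. Vsig4 followed with 9.55 RPKM in KO and 12.1 in WT. The other 7 markers averaged 0.189 to 4.82 RPKM in KO and 2.02 to 4.71 in WT, and in WT neighbours in this order overlapped. Folr2 was eighth of 10 in WT, at 2.15 RPKM, and last in KO, at 0.189 RPKM.

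Genes with a profile most like that of Clec4f over the 6 livers, by Pearson correlation of log2(CPM + 0.5) among 13303 tested genes, were Col6a6 (0.99), Clec1b (0.99), Sdcbp (0.98), Pigl (0.98) and Laptm5 (0.98). Of the markers Csf1r was ranked 6th (0.98) and Cd163 9th (0.98), while Folr2 had a value of 0.08. The value of Col6a6 rests on 2 to 21 counts per library, and KO 4, at 2 counts, was below the floor of 3 counts. All these correlations are descriptions over n = 6 livers that share depth and genotype.

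Of 18 tested genes otherwise known from Kupffer cells, 1 rose and 1 fell, with a median log2 fold change of −0.21. That median gives no stable direction: it was −0.53 without KO 2, −0.06 without KO 1, −0.05 without KO 4 and 0.02 without WT 11. Hpgd, the enzyme that inactivates prostaglandins and is also made by other liver cells, fell to 51.5 ± 11.5 CPM in KO, against 118 ± 17.1 CPM in WT (−1.19 ± 0.21 SE, edgeR adjusted p = 0.00828), and kept its call whichever of the 6 libraries was left out. Kcna2, a potassium channel, rose to 8.91 ± 5.01 CPM in KO, against 2.14 ± 0.59 CPM in WT (2.06 ± 0.44, adjusted p = 0.0147), but not without KO 1 (0.0508) or KO 2 (0.0572). Clec1b averaged 9.02 ± 3.27 CPM in KO and 8.74 ± 1.29 CPM in WT (0.05 ± 0.27 SE, adjusted p = 0.919).

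Among 13 transcription factors of Kupffer identity 2 rose and 1 fell (median 0.52). Without KO 4, where 13.7% of all tested genes rose and 15.7% fell, 5 rose and 1 fell. Without WT 11 1 rose and 2 fell, and in each of the other 4 fits that left out 1 library 1 rose and 0 fell. Their median was 0.73 without KO 4, 0.35 without KO 1, 0.06 without KO 2 and −0.27 with KO 4 alone. Id1, an inhibitor of basic helix-loop-helix factors, had 19.0, 22.9 and 11.9 CPM in KO 1, KO 2 and KO 4, against 6.65, 5.23 and 4.37 CPM in WT 2, WT 4 and WT 11. It rose (1.73 ± 0.27 SE, edgeR adjusted p = 0.00586), also whichever of the 6 libraries was left out. Id3, its relative that Kupffer cells need for their development in mouse, averaged 60.0 ± 9.78 CPM in KO and 38.1 ± 3.67 CPM in WT (SD, n = 3 each). It rose (0.66 ± 0.18, adjusted p = 0.0339), but passed in only 1 of the 6 fits that left out 1 library, the one without KO 4, with adjusted p-values of 0.0124 to 0.144, and not with library totals (0.158). Smad4, which relays TGF-beta and BMP signals, fell (−0.76 ± 0.20, adjusted p = 0.0294) and passed in 2 of those 6 fits, lost without KO 1, KO 2, WT 2 or WT 4 (up to 0.12). These 3 genes are expressed by other liver cells too.

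The other factors named here did not pass by edgeR. Nr1h3, the liver X receptor alpha, averaged 89.8 ± 11.1 CPM in KO and 106 ± 4.18 CPM in WT (−0.23 ± 0.17). Spi1, which encodes PU.1, averaged 10.2 ± 6.54 CPM in KO and 6.90 ± 2.21 CPM in WT (0.57 ± 0.41). Irf8 had a log2 fold change of 0.97 ± 0.33 (edgeR adjusted p = 0.066), Maf 0.70 ± 0.29, Spic 0.79 ± 0.52, Zeb2 0.52 ± 0.31, Tfec 0.41 ± 0.43 and Bhlhe40 0.20 ± 0.18. Rbpj, the nuclear partner of Notch, had −0.34 ± 0.22.

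Of 17 genes of CSF1 receptor signalling 2 rose and 0 fell (1 fell at an unadjusted p under 0.05, and 0 with DESeq2 or limma-voom). The number that rose was 0 to 3 when 1 library was left out, 0 without WT 4 and 3 without KO 4, where 1 also fell. Csf2ra, a subunit of the receptor for the related factor GM-CSF, rose (1.39 ± 0.28, edgeR adjusted p = 0.0122), though not without WT 4 (0.0535). Pik3cd, a leukocyte PI3-kinase, rose as well (1.32 ± 0.36, adjusted p = 0.0337), but was lost without KO 1, KO 2, WT 2 or WT 4 (up to 0.126). The ligand Csf1 averaged 9.77 ± 2.74 CPM in KO and 6.76 ± 3.24 CPM in WT, and Il34 averaged 1.34 ± 0.44 CPM in KO and 1.08 ± 0.25 CPM in WT. Of 14 niche signals, among them both ligands, 1 rose and 0 fell (1 at an unadjusted p under 0.05, and 0 with DESeq2 or limma-voom). It was the Notch ligand Dll1 (0.84 ± 0.22, adjusted p = 0.0289), which passed in 1 of the 6 fits that left out 1 library, the one without KO 4 (0.0183 to 0.134 over the 6). Of 8 partners of folate and haptoglobin handling, 2 rose and 0 fell by edgeR. They were Tnfsf12 (1.16 ± 0.26), whose protein TWEAK is bound by CD163, and its receptor Tnfrsf12a (0.62 ± 0.19), which passed in 2 and in 1 of those 6 fits. Haptoglobin itself, Hp (0.69 ± 0.28, adjusted p = 0.108), and the folate carriers Slc46a1 (−0.67 ± 0.22, adjusted p = 0.0621) and Slc19a1 (0.31 ± 0.23) did not pass. DESeq2 and limma-voom each called 1 fall in this list. Without KO 1, KO 2, WT 2 or WT 4 none of the 8 was called by edgeR, and without KO 4 3 rose and 1 fell.

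Of 19 markers shared by all macrophages, 1 rose and 0 fell (0 also at an unadjusted p under 0.05 and with DESeq2 or limma-voom), with a median of 0.26. The median had no stable direction, at −0.08 without KO 2, 0.59 without KO 4 and −0.38 with KO 4 alone. Without KO 4 5 rose, where 13.7% of all tested genes did. The one that rose with all libraries was Coro1a (1.53 ± 0.36, edgeR adjusted p = 0.019), an actin-binding protein of all leukocytes, lymphocytes included, and it was lost without KO 1, KO 2, WT 2 or WT 4 (up to 0.0708). Of 14 other scavenger and complement receptors 1 rose and 3 fell, with a median of −0.03 that lay between −0.22 (without KO 2) and 0.18 (without KO 4) when 1 library was left out. None was called without KO 1 or without WT 4, and 1 fell without KO 2 or WT 2. Colec12, a collectin of endothelium, fell to 23.1 ± 3.11 CPM in KO, against 40.8 ± 4.78 CPM in WT (−0.82 ± 0.18, adjusted p = 0.0154), but not without KO 1 or WT 4 (up to 0.0619). Scarb1 (−0.80 ± 0.22) and Cd36 (−0.71 ± 0.22) fell, and Itgax rose (1.56 ± 0.45), each passing in 1 of the 6 fits that left out 1 library.

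Markers of other cell types were read beside the Kupffer genes. Of 14 listed markers of monocytes and recruited macrophages only 8 were tested. In KO 6 of these were higher and 2 lower, with a median log2 fold change of 0.54 (0.23 without KO 2). Of the 8, 1 rose, Itgax, and 1 fell, Fn1, which hepatocytes also make. The rise was lost with DESeq2 (adjusted p = 0.0807), limma-voom (0.0504) and library totals (0.0636), and Fn1 was lost without KO 1, KO 2 or WT 4 (up to 0.0606). Ccr2, the receptor that brings monocytes into tissue, averaged 2.63 ± 1.05 CPM in KO and 1.68 ± 0.57 CPM in WT (0.65 ± 0.41, edgeR adjusted p = 0.287). Of the sinusoidal endothelial genes Oit3 (−1.45 ± 0.26) and Lyve1 (−1.69 ± 0.32) fell, whichever library was left out. Kdr (−0.92 ± 0.21) and Clec4g (−0.81 ± 0.21) fell too, but not without KO 2 or WT 2, and Clec4g also not without WT 11. Of 12 stellate cell markers 0 rose and 0 fell (3 and 1 at an unadjusted p under 0.05, 1 and 1 with DESeq2, and 0 and 0 with limma-voom). Hgf, the hepatocyte growth factor, had −1.12 ± 0.35 (edgeR adjusted p = 0.0517) and Des, which encodes desmin, 1.07 ± 0.37 (0.0691). Hepatocyte markers had 1 fall and 0 rises among 11, the fall being the urea cycle enzyme Cps1 (−1.52 ± 0.29). At an unadjusted p under 0.05 (edgeR) 3 rose and 2 fell. With DESeq2 2 rose and 1 fell, and with limma-voom 0 rose and 2 fell. Without KO 4 1 rose and 3 fell, and in the other fits that left out 1 library 0 rose and 1 fell.

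Of lymphocyte and neutrophil markers many rose in KO livers: 5 of 9 tested for T and NK cells, 6 of 9 for B cells and 3 of 3 for neutrophils, whose other 7 markers had too few counts to be tested, with none that fell by edgeR, DESeq2 or limma-voom or at an unadjusted p under 0.05. Among them were the chemokine Ccl5 (2.56 ± 0.42), the T cell receptor constants Trbc1 (2.02 ± 0.41) and Trbc2 (3.77 CPM in KO and 0.93 CPM in WT), and Nkg7 (2.12 ± 0.53) of cytotoxic granules. B cell genes were Cd79a (1.95 ± 0.34), Ighd (2.11 ± 0.40) and Cd22 (2.15 ± 0.41), and neutrophil genes S100a8 (2.37 ± 0.42), Csf3r (1.97 ± 0.39) and S100a9 (1.81 ± 0.42). When 1 library was left out, 1 to 7 T and NK cell markers rose (1 without WT 4, 2 without WT 2, 3 without KO 2), 5 to 9 B cell markers (9 without KO 4) and 2 to 4 neutrophil markers (2 without KO 2, WT 2 or WT 4). Of the genes named, Nkg7 passed in 2 of those 6 fits, S100a9 in 3, Trbc1 in 4 and Trbc2 in 5, and the others in all 6. The summed levels were 14.4 to 27.9 CPM in KO and 5.55 to 8.87 CPM in WT for 14 T and NK cell markers. For 10 B cell markers they were 25.3 to 43.1 CPM in KO and 11.6 to 16.7 CPM in WT, and for 10 neutrophil markers 7.40 to 17.8 CPM in KO and 2.75 to 3.90 CPM in WT. None of these sums overlapped between genotypes, which for genes taken singly was the case for 38.9% of all tested genes in either direction. The summed Kupffer markers, at 151 to 341 CPM in KO and 209 to 319 CPM in WT, did overlap. Of their counts 29.1% to 40.8% were of Clec4f and 15.3% to 29.6% of Cd5l, so that sum follows these genes more than the list. Within KO, KO 2 had the highest sum for the lymphocyte, neutrophil and Kupffer lists alike. The part of blood or lymphoid cells in the marker values was not tested. Of all 36 genes called in these lists, none passed with the mitochondrial share as a covariate (smallest adjusted p 0.294) or with KO 4 alone (0.0781).

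**Figure D4:**
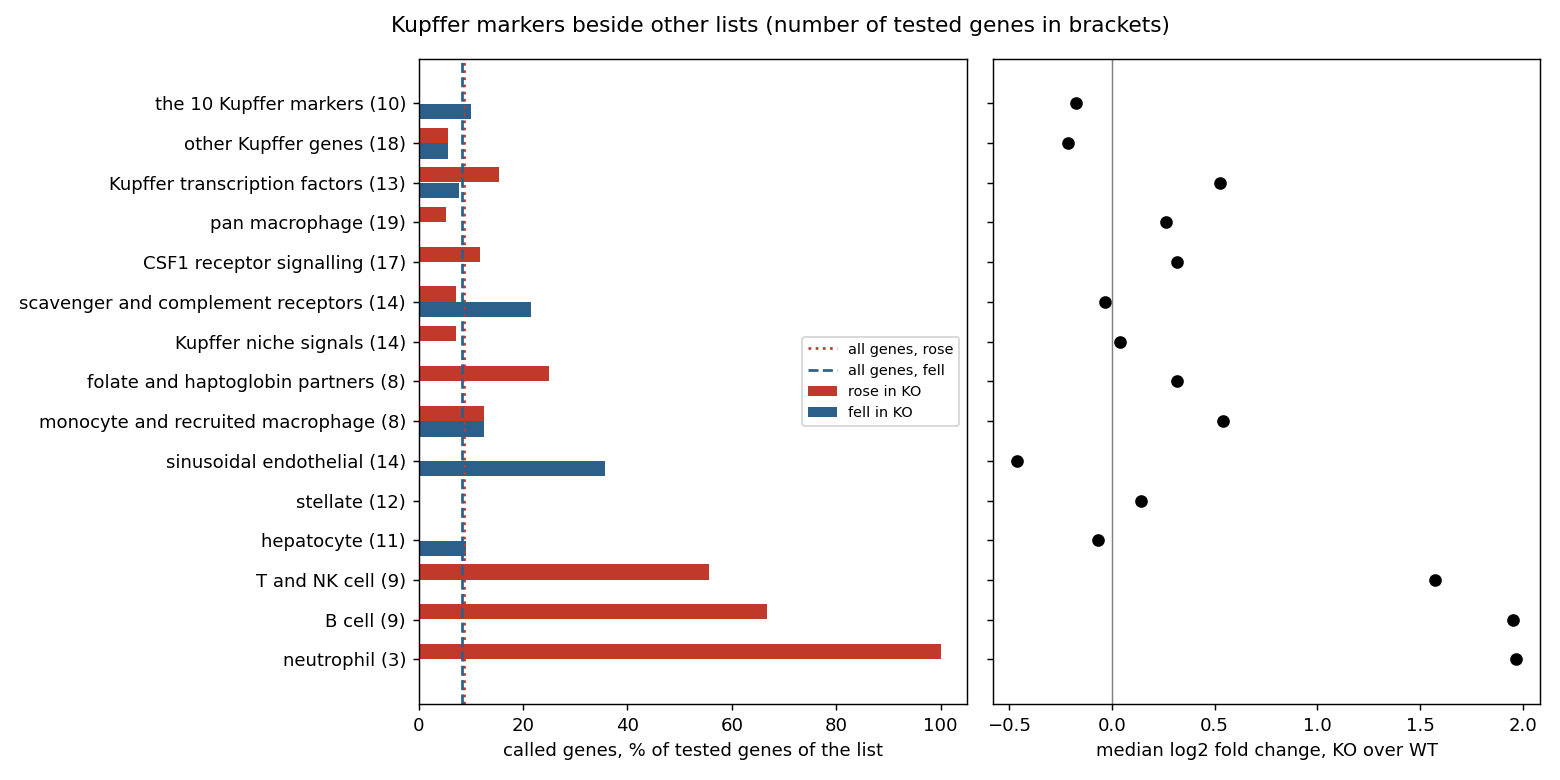
Left, the share of tested genes in each list that rose (red) or fell (blue) in KO, with the shares over all tested genes as lines (8.76% rose, dotted; 8.29% fell, dashed); right, the median log2 fold change of each list, KO over WT. The 10 Kupffer markers have a fall of 10% and no rise, near the lines, while the lists of T and NK cells, B cells and neutrophils have rises only.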

How the data were processed

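Liver RNA was sequenced in 3 KO and 3 WT libraries after extraction on Qiagen columns; the labels' protocols name SMARTer chemistry for the libraries. The authors deposited raw counts per gene, 1 column per library, with no normalization; mm10 is the build per the submitters' notes on processing, and neither the aligner nor the counting program with its strand setting is named in the sources used here. Counts were tested in R 4.3.3 with edgeR 4.0.16 (quasi-likelihood F test, TMM scaling, filterByExpr), two-sided, over 13304 genes with Benjamini-Hochberg adjustment, and a gene was called at an adjusted p under 0.05. The SE is the absolute log2 fold change over the square root of F. DESeq2 1.42.0, limma 3.58.1 (voom), other scalings, filters and covariates were alternatives. Ratios used log2 of CPM plus 0.5. The main test was tested on simulated data.

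Members and the 14 context lists were chosen with earlier results of these data known. Genes of those lists were named by smallest p, up to 4 called genes a list, or up to 2 where none was called. Transcription factors and the 5 genes most like Clec4f were named as well, and 2 genes of these lists are not reported here. Clec1b, Csf1, Il34, Ccr2, Hp, Slc46a1, Slc19a1, Folr1, the neighbours of Folr2 and Gm10602 were picked with their values known, as were the 3 motifs. Coordinates, exon lengths and transcript words are from GENCODE M21 (mm10). Replicates differed by 65.2 to 171 chi-square units per degree of freedom in KO and 21.0 to 43.3 in WT, so each counted as a separate sample. Nothing says that they came from separate mice, and p-values measure only the spread between them.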

Additional observations from a re-analysis of the deposited data

How the results depend on the processing

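The count of markers that fell, 1, was 0 with the mitochondrial share as a covariate and 0 with KO 4 alone against the 3 WT, 4 with no low-count filter (where 7.66% of all genes fell and 6.26% rose), and 1 to 4 over the fits that left out 1 library (4 without KO 2). The count that rose, 0, became 1 (Timd4) with no low-count filter and 1 (Timd4) with the replicate block (5.80% of all genes). It stayed at 0 in the fits that left out 1 library. The fit with no low-count filter gave smaller standard errors for each marker, so its calls are less cautious than those of the main fit. Called genes in the whole table numbered 630 to 4046 when 1 library was left out, 25 with KO 4 alone and 0 with the covariate. The block used the replicate numbers 2 and 4, which occur in both genotypes. The other livers have no partner of the same number, so the genotype difference in this fit, with the Timd4 call, rests on livers 2 and 4. Deviations of same-numbered livers correlated at −0.05 (number 2) and 0.06 (number 4). With so few livers these values cannot tell whether same-numbered livers have more in common than the number. The block moved the called genes from 2268 to 1686.

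Signs turned for 5 of the 9 markers that did not pass. Clec4f was −0.12 with library totals, −0.03 with no filter, −0.0065 with DESeq2, −0.026 with limma-voom, −0.25 with the covariate, −0.49 with KO 4 alone and −0.30 to 0.22 when 1 library was left out. Cd163 was −0.0396 with library totals, −0.24 with the covariate, −0.51 with KO 4 alone and −0.26 to 0.33 when 1 library was left out. Csf1r was 0.0028 when at least 1 CPM was asked of 3 libraries, 0.12 with the replicate block and −0.53 to 0.25 when 1 library was left out. Marco was −0.85 with KO 4 alone and −0.62 to 1.20 when 1 library was left out, and Timd4 was −0.21 with KO 4 alone. The cause was not tested. Taking the mitochondrially encoded genes out of the table turned no sign and changed no call among the markers. With KO 4 alone only the WT livers supply the spread, and KO is assumed to vary like them. Folr2, at 1 to 9 counts per KO library, is the marker most limited by depth.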
